A study of Mus musculus with 30 samples.

Results

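Gene expression in muscle 11 days after volumetric muscle loss is compared here with that in uninjured muscle. The comparison uses the 6 libraries labelled 11 days after injury (3 labelled male, 3 labelled female) and the 6 labelled uninjured (3 male, 3 female), which are 12 of the 30 libraries of the study, and they were chosen by those labels alone. The study sequenced total RNA of mouse tibialis anterior, a muscle of the front of the lower leg, in uninjured muscle and 4, 7, 11 and 15 days after injury, with 3 libraries for each sex and time. Its stated purpose was to compare injured with uninjured muscle. The labels give no strain, age, genotype or size of the defect, and no agent other than the injury. They do not say whether the libraries came from separate animals, or whether uninjured muscle was the other leg of injured mice, so p-values cover the spread among these libraries, which may be technical.

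Volumetric muscle loss is the removal of a block of muscle together with its basal lamina, nerves and vessels, and it is known for ending in scar rather than in regrown muscle. In ordinary muscle injury, macrophages clear dead fibres, satellite cells (the muscle stem cells) divide and fuse into new fibres, and fibro-adipogenic progenitors lay down a matrix that is later removed. New fibres first make embryonic and neonatal myosins and spread acetylcholine receptors over their whole surface until a nerve reaches them. Genes of these steps are described below in turn.

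The day 11 libraries held 27129433 to 38555740 counts and the uninjured libraries 40757683 to 48860849. The top 10 genes by count made up 11.5 to 18.9% of a library at day 11 and 25.7 to 32.3% in uninjured muscle. The first principal component of log2 CPM (counts of a gene relative to the scaled size of its library) separated the 6 day 11 from the 6 uninjured libraries and held 74.4% of the variance of the 12. The library labelled female day 11 replicate 3 carried 57.4 CPM of the Y-linked Ddx3y and 0.109 CPM of Xist, the X-inactivation RNA, which goes against its label. It is called by that label below. Of the 6 day 11 libraries it had the lowest mean in 25 of the 50 gene lists used below and the highest in 5, so lists are also given without it where their counts differ by more than 1.5 times or their median changes sign. The calls of Y-linked genes at day 11 rest on it and are not used.

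Of 17136 tested genes, 7319 were higher at day 11 than in uninjured muscle (42.7%) and 5087 lower (29.7%) at an adjusted p under 0.05 in edgeR's quasi-likelihood test, and 4730 were not called. In 4414 genes (25.8%) every day 11 library lay above every uninjured one, and in 3509 (20.5%) every one lay below. The called genes that differed by more than 2-fold numbered 5559 higher and 2983 lower. The split rests on the scaling: the log2 fold change of the median gene was 0.32, and with library size alone 1.46, with 12652 genes higher and 1385 lower. A fall smaller than the gap between these medians can therefore change sign, as it did for Ctsd, Ccl11, Cxcl14, P4ha2, Timp3, Lipe and Ppargc1a, which are named below. The lower members of the lists of repair macrophages, chemokines, collagen-modifying enzymes, fibro-adipogenic progenitors, cartilage and bone, Schwann cells, satellite cells, developmental fibre genes and the IGF system were then no longer called lower. Since so many genes were called, the counts in each list are to be read against these shares. A gene with few counts in uninjured muscle was tested only because another group held more, so the counts of tested members are descriptions. In RNA from whole tissue, fewer cells of a type and less RNA per cell cannot be told apart. Values after a gene's name are log2 fold changes, day 11 over uninjured, ± SE. For genes with hardly any counts in the uninjured libraries of either sex, the ratio of levels is given with its 95% counting interval, which covers counting error only.

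**Figure D1:**
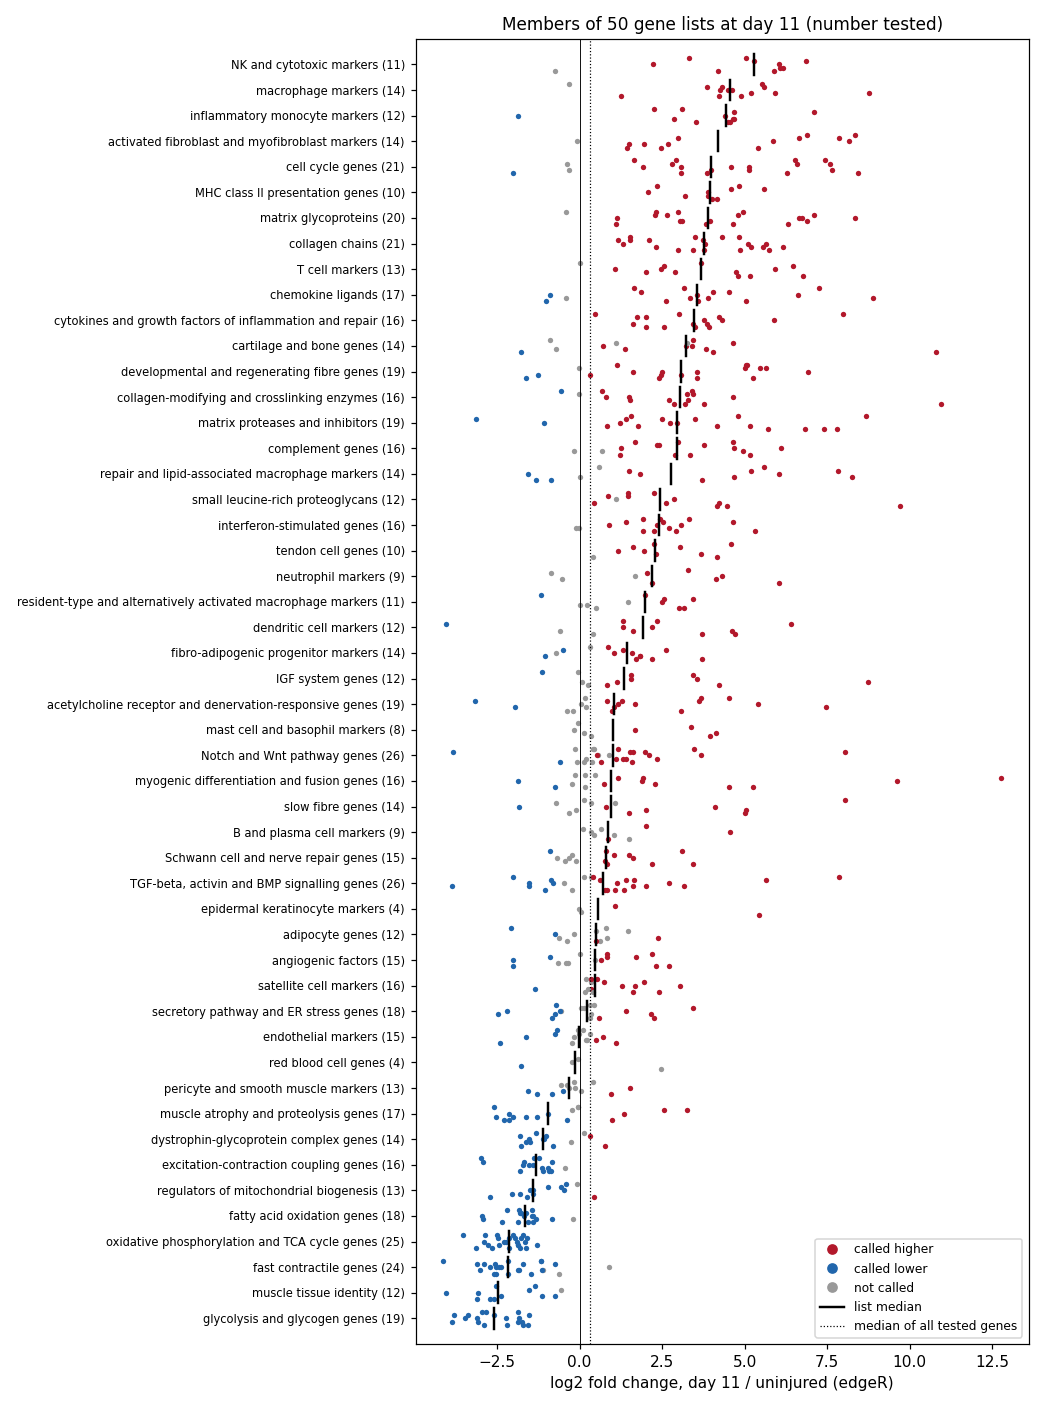
Log2 fold change, day 11 over uninjured, of each tested member of the 50 gene lists, with the number tested in brackets. Red points were called higher, blue points lower and grey points were not called, black bars mark list medians, and the dotted line marks the median of all tested genes, 0.32. Immune and matrix lists lie at the top, with macrophage markers at a median of 4.54 and NK and cytotoxic markers at 5.28, or 4.18 with genes near 0 at their bounds, and glycolysis genes at the bottom, at -2.60.

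Genes of muscle cell fusion and of the matrix were among the 10 largest rises. Mymx, which encodes the small membrane protein myomixer that opens the fusion pore between myoblasts, had 5.996, 23.6 and 38.9 CPM at day 11 (lowest, median and highest of 6) and no count in any uninjured library. It was at least 538-fold higher, with 6 counts over the uninjured libraries taken as the floor. Its partner Mymk, which encodes myomaker, had 16.5, 112 and 161 CPM (lowest, median, highest) at day 11, against 0, 0.118 and 0.352 CPM in uninjured muscle (ratio 779, 493 to 1314). Neither gene's groups overlapped, and in both the lowest day 11 value was that of female day 11 replicate 3. P4ha3, a subunit of the enzyme that hydroxylates proline in collagen, had 11.0, 39.7 and 48.2 CPM at day 11 and at most 0.177 CPM in uninjured muscle (ratio 783, 359.6 to 2135). Acan, the large proteoglycan of cartilage, had 5.17, 18.9 and 30.6 CPM at day 11, and 2 counts over all uninjured libraries (ratio 1336, 369.5 to 11033). The day 11 libraries of both genes all lay above the uninjured ones.

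The other rises among the 10 largest were the keratin Krt8 (ratio 485, 278 to 939.7), the chemokine Ccl8 (ratio 504, 289 to 977), Tlr13, an endosomal receptor for bacterial RNA (ratio 119.6, 71.1 to 219), the secreted C1qtnf3 (8.79 ± 0.71), Rtl1, an imprinted gene of the Dlk1 region (ratio 508, 174 to 2466), and Ms4a7, a macrophage membrane protein (8.77 ± 0.72). Ccl8 stood at 7.09 to 93.4 CPM (median 31.6) at day 11 and 0 to 0.176 CPM (median 0.0763) in uninjured muscle. The 10 largest falls held genes of metabolism, growth and the fibre itself. Phospho1, a phosphatase of phosphocholine, had 0.325, 1.00 and 1.96 CPM (lowest, median, highest) at day 11, against 15.6, 40.0 and 61.4 CPM in uninjured muscle (-5.30 ± 0.55, adjusted p = 8.08e-09). Epm2a, which encodes the glycogen phosphatase laforin, fell by 4.96 ± 0.56 on the log2 scale. Mybpc2, the myosin-binding protein C of fast fibres, had 113, 503 and 1087 CPM (lowest, median, highest) at day 11, against 5952, 9129 and 11197 CPM in uninjured muscle (-4.13 ± 0.64, adjusted p = 3.15e-06). In none of these falls did the groups overlap. Tspan8 (-5.44 ± 0.67), Odf3l2 (-5.44 ± 0.76) and Sdr39u1 (-4.42 ± 0.44) fell too. So did Amd1, the enzyme that feeds polyamine synthesis (-4.82 ± 0.45), the carboxylesterase Ces1d (-5.30 ± 0.85), and the histone genes H1f2 (-4.29 ± 0.47) and H4c9 (-4.28 ± 0.42), but these 4 have close copies in the genome, and how shared reads were counted is not given in the sources used here.

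Genes of the mature fast fibre and of its energy supply fell together. Among the fast contractile genes 0 of 24 tested members were higher and 21 lower, with a median of -2.17, and the day 11 and uninjured libraries did not overlap in 18, while with library size alone 1 were higher and 14 lower. Myh4, the myosin heavy chain of type 2B fibres and the main one of this muscle, had 5628, 9173 and 17669 CPM (lowest, median, highest) at day 11, against 65719, 82722 and 109166 CPM in uninjured muscle (-3.12 ± 0.50, adjusted p = 4.51e-06). The Z-disc protein Actn3, which is restricted to fast fibres, had 1893, 3039 and 4210.2 CPM (lowest, median, highest) at day 11, against 14187, 27476 and 31986 CPM in uninjured muscle (-3.02 ± 0.41). Both genes were lower in every day 11 library than in any uninjured one. The heavy chains of the other fast types did not pass the test. Myh1, of type 2X fibres, stood at 4562 to 12268 CPM (median 5971) at day 11 and 6437 to 16394 CPM (median 11275) in uninjured muscle (-0.64 ± 0.41, adjusted p = 0.166), and Myh2, of type 2A fibres, at 779 to 2420.2 CPM (median 1532) at day 11 and 266 to 3009.8 CPM (median 1017) in uninjured muscle (0.89 ± 0.59, adjusted p = 0.181). The range of each was wide in both groups. Neither result held under every setting. With only the compared groups fitted, Myh1 was called lower and Myh2 higher, and with library size alone Myh2 was called higher (2.01). The labelled tissue was checked by 12 muscle identity genes, of which 0 were higher and 11 lower (median -2.47), and with library size alone 1 were higher and 7 lower. Ckm, the creatine kinase of muscle, had the largest fall among them, with 1061, 1526 and 4123 CPM (lowest, median, highest) at day 11, against 19787, 29424 and 37096 CPM in uninjured muscle (-4.05 ± 0.55), so muscle transcripts remained present at day 11.

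Of 16 tested genes of excitation-contraction coupling, the step that turns the membrane signal into calcium release, 0 were higher and 15 lower (median -1.31), and with library size alone 0 were higher and 4 lower. Jph2 and Jph1, which tie the surface tubules to the calcium store, fell most (-2.98 ± 0.32 and -2.92 ± 0.36). Jph2 had 176, 226 and 312 CPM (lowest, median, highest) at day 11, against 1376, 1766 and 2334 CPM in uninjured muscle, with no overlap. The calcium release channel Ryr1 fell by 1.53 ± 0.27 on the log2 scale. Of 14 tested genes of the dystrophin-glycoprotein complex, which links the fibre's skeleton to the matrix, 2 were higher and 10 lower, and their median was -1.10, but 0.048 with library size alone, where 3 were higher and 3 lower. Among the members that fell were the sarcoglycans Sgcd (-1.79 ± 0.31) and Sgca (-1.63 ± 0.26). The members called higher were Lama2, the laminin chain the complex binds (0.76 ± 0.18), and Utrn, the relative of dystrophin found in young fibres (0.31 ± 0.11).

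All 19 tested genes of glycolysis and glycogen use were lower (median -2.60), and in every one the groups did not overlap. With library size alone 15 were called lower and 0 higher (median -1.46). Pgk1, which makes ATP in glycolysis, had 50.04, 71.5 and 209.9 CPM (lowest, median, highest) at day 11, against 924, 1215 and 1771 CPM in uninjured muscle (-3.86 ± 0.52, adjusted p = 4.33e-07). Ldha, lactate dehydrogenase A, fell to 335 to 1386 CPM (median 486) at day 11, against 7003 to 9760.2 CPM (median 8293) in uninjured muscle (-3.82 ± 0.51). Pygm, the glycogen phosphorylase that is missing in McArdle disease, followed with -3.07 ± 0.44. All 25 tested genes of oxidative phosphorylation and the citric acid cycle were lower as well (median -2.13), in 23 without overlap. Of these, 22 were called lower and 0 higher with library size alone (median -1.01). Cox5a, a subunit of cytochrome oxidase, had 60.9, 127 and 427 CPM (lowest, median, highest) at day 11, against 1379, 1912 and 2097 CPM in uninjured muscle (-3.53 ± 0.55), and Sdha of complex II fell by 3.15 ± 0.39 on the log2 scale. Of 18 fatty acid oxidation genes 17 were lower (median -1.66), and 10 with library size alone (median -0.55). The largest falls were those of Acadm (-2.97 ± 0.36) and Etfdh (-2.93 ± 0.36). The exception was Cpt1b, which carries fatty acids into mitochondria (-0.19 ± 0.60, adjusted p = 0.779).

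Among 13 regulators of mitochondrial biogenesis 1 was higher and 11 were lower (median -1.41), whereas with library size alone 5 were higher and 3 lower. The largest falls were those of Perm1 (-2.70 ± 0.52), Ppara (-2.06 ± 0.47) and Esrrb (-1.82 ± 0.46). Ppargc1a, which encodes the coactivator PGC-1α, stood at 8.31 to 25.8 CPM (median 13.9) at day 11 and 19.2 to 42.2 CPM (median 28.4) in uninjured muscle, and its log2 fold change of -0.95 ± 0.32 (adjusted p = 0.0106) became 0.19 with library size alone. The medians of the energy lists were larger in size in females. That of the oxidative list was -2.85 in females (-2.76 without female day 11 replicate 3) and -1.37 in males, and that of the fatty acid list -2.23 in females (-2.21 without that library) and -1.02 in males. No list was tested for a difference between the sexes, and no gene of these lists was called in the test by gene given below. Genes of wasting did not rise as a group: of 17 tested genes of atrophy and proteolysis 4 were higher and 10 lower, with a median of -0.95, but 0.21 with library size alone, where 8 were higher and 6 lower. The ubiquitin ligases Fbxo32 and Trim63 (atrogin-1 and MuRF1) fell to 30.01 to 93.2 CPM (median 72.5) and 46.3 to 130.1 CPM (median 77.2) at day 11, against 239.6 to 441 CPM (median 293) and 216 to 304 CPM (median 264) in uninjured muscle. Their log2 fold changes were -2.30 ± 0.36 and -1.63 ± 0.28. The members that rose were the metallothioneins Mt2 (3.26 ± 0.43) and Mt1 (1.35 ± 0.31), Eda2r, a receptor of the TNF family (2.55 ± 0.20), and Gadd45a (0.99 ± 0.33).

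**Figure D2:**
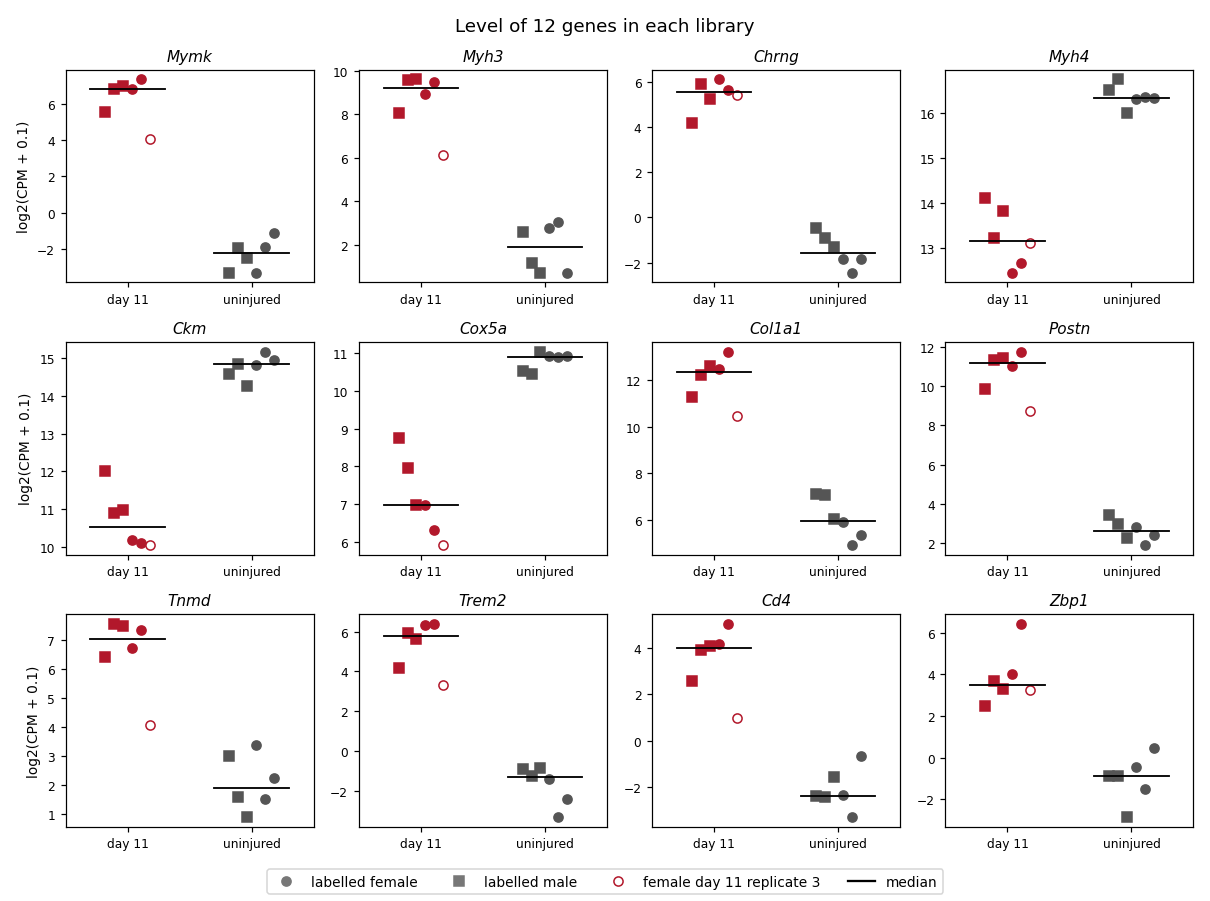
Level of 12 genes in each of the 6 day 11 libraries (left, red) and the 6 uninjured libraries (right, grey), as log2(CPM + 0.1). Circles are libraries labelled female, squares male, the open circle is female day 11 replicate 3, and bars are medians. The groups do not overlap in any of the 12 genes, and the open circle is the lowest day 11 library for Mymk, Myh3, Col1a1, Postn, Tnmd, Trem2, Cd4, Ckm and Cox5a.

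Genes that mark new fibres were higher. Of 19 tested developmental and regenerating fibre genes 16 were higher and 2 lower (median 3.06). The embryonic myosin Myh3 had 70.3, 604 and 772 CPM (lowest, median, highest) at day 11, against 1.53, 4.03 and 8.04 CPM in uninjured muscle (6.93 ± 0.59, adjusted p = 5.63e-10). The neonatal myosin Myh8 had 83.9, 849.6 and 1130.5 CPM (lowest, median, highest) at day 11, against 11.4, 14.2 and 20.4 CPM in uninjured muscle (5.47 ± 0.48). Every day 11 library lay above every uninjured one for both, but female day 11 replicate 3 held the lowest value of each. The growth factor Igf2, high in fetal muscle, stood at 214 to 1015 CPM (median 669.6) at day 11 and 37.3 to 65.1 CPM (median 57.7) in uninjured muscle (3.55 ± 0.35), and Dlk1, an imprinted ligand of the Notch family, rose by 5.66 ± 0.54. The members that fell were the cardiac actin Actc1 (-1.64 ± 0.41) and Mybph (-1.27 ± 0.25), and the Actc1 groups overlapped. Among slow fibre genes 7 of 14 tested members were higher and 1 lower (median 0.94), and 2 were lower without female day 11 replicate 3. The median was -0.22 in females and 1.98 in males, a difference that was not tested for the list. Sln, which encodes the calcium pump inhibitor sarcolipin, had 209, 431 and 1151 CPM (lowest, median, highest) at day 11, against 0.382, 2.16 and 3.86 CPM in uninjured muscle (8.05 ± 0.59, adjusted p = 7.66e-11), with no overlap. Tnni1 (5.05 ± 0.64) and Tnnc1 (5.01 ± 0.59), the slow troponins that new fibres also make, overlapped with uninjured muscle through female uninjured replicate 2, whose Myh7 level of 75.8 CPM was far above the other 5 uninjured libraries. Myh7 itself, the slow myosin, did not pass the test (1.08 ± 0.70, adjusted p = 0.167), but did without that library (2.88, adjusted p = 0.000164).

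The regulators of myogenesis moved unequally. Myog, the transcription factor of differentiation, had 63.5, 255 and 347 CPM (lowest, median, highest) at day 11, against 6.29, 8.42 and 13.3 CPM in uninjured muscle (4.52 ± 0.37, adjusted p = 3.67e-10), without overlap. Myod1, which acts before it, stood at 31.3 to 72.1 CPM (median 46.9) at day 11 and 28.8 to 44.1 CPM (median 32.6) in uninjured muscle and did not pass the test (0.46 ± 0.24, adjusted p = 0.0929). Pax7, the defining transcription factor of satellite cells, was likewise not called, at 0.976 to 3.68 CPM (median 1.86) at day 11 and 0.597 to 3.57 CPM (median 1.79) in uninjured muscle (0.25 ± 0.32, adjusted p = 0.496). Both pairs of groups overlapped. With library size alone Myod1 and Pax7 were called higher (1.63 and 1.40). Of 16 tested satellite cell markers 10 were higher and 1 lower (median 0.46), whereas 6 were higher without female day 11 replicate 3 and 15 with library size alone. Megf10, a receptor that keeps satellite cells dividing, rose most (3.04 ± 0.32), before the adhesion molecule Vcam1 (2.39 ± 0.30) and the receptor Fgfr4 (1.96 ± 0.22). Cdh15, which encodes the M-cadherin between satellite cell and fibre, was the member that fell (-1.35 ± 0.17). Among 16 genes of differentiation and fusion 9 were higher and 2 lower (median 0.95), and with library size alone 14 were higher and 1 lower. After Mymx and Mymk the largest rise there was that of Igfn1, a muscle protein of the immunoglobulin family, at 318 to 2695 CPM (median 551) at day 11 and 7.56 to 52.8 CPM (median 21.8) in uninjured muscle (5.26 ± 0.55).

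Genes of the acetylcholine receptor and of the response to denervation were mostly higher: 12 of 19 tested members were higher and 2 lower (median 1.03). Adult endplates carry a receptor with the ε subunit (Chrne), and fetal or denervated fibres one with the γ subunit (Chrng). Chrng had 17.9, 46.9 and 69.1 CPM (lowest, median, highest) at day 11, against 0.0833, 0.245 and 0.620 CPM in uninjured muscle (7.46 ± 0.40, adjusted p = 2.09e-12). All 6 day 11 libraries, female day 11 replicate 3 included, lay above all 6 uninjured ones. Chrne stood at 33.0 to 65.4 CPM (median 41.9) at day 11 and 27.0 to 117 CPM (median 44.7) in uninjured muscle and was not called (-0.22 ± 0.44, adjusted p = 0.671). With library size alone Chrne was called higher (0.94, adjusted p = 0.0474 in edgeR's test), and Chrng rose by 8.60. The subunits shared by both receptors rose: Chrnd by 3.67 ± 0.33, Chrna1 by 1.67 ± 0.33 and Chrnb1 by 1.27 ± 0.22. The adhesion molecule Ncam1 rose by 3.06 ± 0.29 and the transcription factor Runx1 by 5.41 ± 0.34. The members that fell were Rapsn, which anchors the receptor at the endplate, at 14.6 to 28.5 CPM (median 22.1) at day 11 and 64.3 to 104 CPM (median 85.9) in uninjured muscle (-1.95 ± 0.18), and Dach2, a repressor of Myog (-3.17 ± 0.69). Rapsn was lower in every day 11 library, whereas the groups of Dach2 overlapped.

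The promoters of Chrng and Chrna1 are shown because these subunits were called higher and Chrne was not, except with library size alone. They are also shown because MyoD and myogenin bind E-boxes of the letters CAGCTG. Sequences are from RefSeq (GRCm38.p6), 250 bases before to 50 bases after the gene's start, 5′ to 3′ on the gene's strand, with each CAGCTG in capitals. This motif reads the same on both strands and none of its matches overlapped. Chrng lies at chr1:87205561-87205860 on the plus strand and Chrna1 at chr2:73580289-73580588 on the minus strand.
Chrng: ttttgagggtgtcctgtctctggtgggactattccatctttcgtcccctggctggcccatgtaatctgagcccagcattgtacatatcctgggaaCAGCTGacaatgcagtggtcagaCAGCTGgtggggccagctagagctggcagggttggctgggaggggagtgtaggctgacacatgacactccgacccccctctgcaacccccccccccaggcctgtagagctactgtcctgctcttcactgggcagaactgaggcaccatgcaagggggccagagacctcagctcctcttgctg
Chrna1: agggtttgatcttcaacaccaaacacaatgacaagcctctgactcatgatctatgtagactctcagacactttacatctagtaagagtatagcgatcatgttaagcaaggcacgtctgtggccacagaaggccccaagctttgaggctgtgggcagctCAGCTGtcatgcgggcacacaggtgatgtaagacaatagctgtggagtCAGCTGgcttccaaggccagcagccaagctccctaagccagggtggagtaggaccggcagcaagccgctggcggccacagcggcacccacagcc
Both windows held 2 matches. The motif was found in 4 of the 13 promoters of the list that matched the RefSeq table, those of Chrna1, Chrng, Chrne and Musk, and so also in Chrne, which was not called. Chrnb1, Agrn, Runx1, Gadd45a and Myog were called higher and held no match. Among the genes of differentiation and fusion the motif was found in 1 of 7 promoters (14.3%). It was found in 16.1% of 27025 promoters of the same length. A match is a description of the letters and not a bound site.

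Genes of macrophages were far above uninjured muscle. Of 14 tested macrophage markers 13 were higher and 0 lower (median 4.54), in all 13 without overlap. Adgre1, which encodes F4/80, had 5.67, 27.8 and 54.8 CPM (lowest, median, highest) at day 11, against 0.417, 1.06 and 2.08 CPM in uninjured muscle (4.90 ± 0.49, adjusted p = 5.48e-09). Aif1 rose by 5.91 ± 0.58, the signalling adaptor Tyrobp by 5.59 ± 0.51 and the receptor Csf1r, on which macrophages depend, by 4.21 ± 0.37. The mean of the list was lowest in female day 11 replicate 3 of the 6 day 11 libraries, yet above every uninjured library, at a mean log2 CPM of 3.54 against 0.477 to 1.46. Among markers of repair and lipid-associated macrophages 9 of 14 were higher and 3 lower (median 2.77). Trem2, a lipid-sensing receptor, had 9.76, 55.3 and 84.4 CPM (lowest, median, highest) at day 11, against 0, 0.298 and 0.458 CPM in uninjured muscle (7.81 ± 0.58), and Spp1, which encodes osteopontin, stood at 16.3 to 286 CPM (median 64.1) at day 11 and 0.440 to 2.84 CPM (median 1.17) in uninjured muscle (6.05 ± 0.69). The proton pump subunit Atp6v0d2 had a ratio of 314 (144 to 855). The 3 lower members were Cd36 (-1.57 ± 0.28), Lpl (-1.34 ± 0.26) and Ctsd (-0.88 ± 0.24), of which Cd36 and Lpl also serve lipid uptake in muscle fibres.

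Of 11 tested markers of resident-type and alternatively activated macrophages 6 were higher and 1 lower (median 1.98). With library size alone 10 were higher (median 3.12). The lectin Clec10a stood at 8.59 to 17.7 CPM (median 13.5) at day 11 and 0.643 to 2.57 CPM (median 1.28) in uninjured muscle (3.43 ± 0.26), and the folate receptor Folr2 (3.01 ± 0.42) and the mannose receptor Mrc1 (2.54 ± 0.28) rose too. Arg1, which breaks down arginine, was called higher at low levels, with 0.153 to 2.41 CPM (median 0.715) at day 11 and 0 to 0.208 CPM (median 0.103) in uninjured muscle, and the groups overlapped. Retnla was the member that fell (-1.18 ± 0.48, adjusted p = 0.0301). Of 12 inflammatory monocyte markers 11 were higher and 1 lower (median 4.44). The Fc receptor Fcgr1 had 7.39, 18.2 and 82.7 CPM (lowest, median, highest) at day 11, against 0, 0.0899 and 1.16 CPM in uninjured muscle (ratio 106, 77.2 to 149), and Plac8 rose by 4.67 ± 0.57. Nr4a1, which muscle fibres also express, was lower (-1.86 ± 0.38). Of 9 tested neutrophil markers 6 were higher and 0 lower (median 2.20), led by Clec4d (6.04 ± 0.69), the alarmin S100a8 (4.33 ± 0.65) and the receptor Csf3r (4.12 ± 0.37). Cxcr2 (1.69), Retnlg (-0.54) and Lcn2 (-0.88) were not called. Ly6g, Camp and Ltf had too few counts to be tested, and S100a8 reached 8.23 CPM at most.

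T cell genes were present at low levels. Of 13 tested T cell markers 12 were higher and 0 lower (median 3.67), and the groups did not overlap in 8. Cd4 had 1.85, 16.1 and 33.5 CPM (lowest, median, highest) at day 11, against 0, 0.0903 and 0.528 CPM in uninjured muscle (6.47 ± 0.66, adjusted p = 6.68e-09). The receptor chains Cd3g and Cd3d had medians of 1.79 and 1.22 CPM at day 11, against 0.0200 and 0.0440 CPM in uninjured muscle (ratio 77.6, 33.1 to 240.0 for Cd3g and ratio 40.9, 20.6 to 95.2 for Cd3d). Cd4 is also made by some macrophages of mice. Foxp3, the transcription factor of regulatory T cells, stood at 0.336 to 2.69 CPM (median 0.706) at day 11 and 0.176 to 0.750 CPM (median 0.349) in uninjured muscle (1.07 ± 0.43, adjusted p = 0.0283), with overlap. Of 11 NK and cytotoxic markers 10 were higher and 0 lower, with a median of 5.28, or 4.18 with genes near 0 at their bounds. Klrk1, the activating receptor NKG2D, stood at 1.66 to 21.0 CPM (median 4.20) at day 11 and 0 to 0.241 CPM (median 0.0634) in uninjured muscle (ratio 81.0, 47.3 to 153), and Ccl5 (5.89 ± 0.80) and Nkg7 (5.28 ± 0.71) rose. In all 3 the highest value was that of female day 11 replicate 2. Of 9 tested B and plasma cell markers 3 were higher and 0 lower (median 0.87). The 3 were Cd22 (4.56 ± 0.48), Cd79b (2.00 ± 0.32) and Jchain (0.87 ± 0.37), while Pax5 and Ms4a1 were not called. With library size alone all 9 were called higher. Of 8 mast cell and basophil markers 4 were higher and 0 lower, with Kit, which is not confined to mast cells, at 3.38 ± 0.30 and the histamine enzyme Hdc at 1.67 ± 0.42. The proteases Tpsab1 (4.14, adjusted p = 0.0232) and Mcpt8 (3.94, adjusted p = 0.0423) were also called higher by edgeR's test. Each had a mean under 1 CPM over the 12 libraries. The proteases Cpa3, Mcpt4, Cma1 and Tpsb2 were not called, except with library size alone.

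All 10 genes of antigen presentation by MHC class II were higher without overlap (median 3.96). H2-Aa had 90.5, 393 and 1122 CPM (lowest, median, highest) at day 11, against 8.17, 16.0 and 21.5 CPM in uninjured muscle (4.83 ± 0.46, adjusted p = 2.80e-09), the protease Ctss that trims the invariant chain rose by 5.59 ± 0.59, and H2-Eb1 by 4.57 ± 0.44. H2 genes are close copies of each other, so their reads may be shared. Of 12 dendritic cell markers 9 were higher and 1 lower (median 1.92), and 2 were lower without female day 11 replicate 3. Itgax, which macrophages express too, rose by 6.42 ± 0.56, Batf3 by 4.70 ± 0.44 and the homing receptor Ccr7 at a ratio of 27.3 (17.6 to 45.0). Cd24a, which many cell types express, fell to 10.5, 16.1 and 60.3 CPM at day 11, against 246, 344 and 432 CPM in uninjured muscle (-4.04 ± 0.54). Of 16 complement genes 14 were higher and 0 lower (median 2.94). C1qa, a chain of the molecule that starts the classical pathway, had 30.7, 220.5 and 494 CPM (lowest, median, highest) at day 11, against 4.08, 6.46 and 7.71 CPM in uninjured muscle (5.16 ± 0.49), and the receptor C3ar1 rose by 6.09 ± 0.51. C3 itself was not called (0.68 ± 0.37, adjusted p = 0.0958).

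Among secreted signals, 14 of 17 chemokine ligands were higher and 2 lower (median 3.56). Besides Ccl8, the monocyte attractant Ccl7 stood at 1.01 to 13.03 CPM (median 2.91) at day 11 and 0 to 0.521 CPM (median 0.0879) in uninjured muscle and Ccl3 at 0.489 to 4.88 CPM (median 2.83) at day 11 and 0 to 0.401 CPM (median 0.0572) in uninjured muscle. Ccl11 (-1.01 ± 0.25) and Cxcl14 (-0.91 ± 0.22) were lower, and Cxcl12 was not called. All 16 tested cytokines and growth factors were higher, with a median of 3.46, or 2.72 with genes near 0 at their bounds. Igf1, a growth factor for muscle that macrophages and fibroblasts release, had 101, 308 and 484 CPM (lowest, median, highest) at day 11, against 7.62, 16.9 and 35.9 CPM in uninjured muscle (4.22 ± 0.36, adjusted p = 4.70e-10), with no overlap. Most inflammatory cytokines stayed low in level: Il1b had a median of 1.49 CPM at day 11 and 0.0638 CPM in uninjured muscle, and Il10 0.593 CPM at day 11 with no uninjured count. Il18 rose by 3.86 ± 0.36 and Tgfb1 by 2.00 ± 0.21.

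Interferon-stimulated genes, which restrict viruses in cells exposed to interferon, were higher in 14 of 16 tested members and lower in 0 (median 2.39). Zbp1, a sensor of nucleic acids, had 5.44, 11.1 and 86.3 CPM (lowest, median, highest) at day 11, against 0.0382, 0.442 and 1.27 CPM in uninjured muscle (5.30 ± 0.53, adjusted p = 4.73e-09). Mx1 had 4.04, 6.31 and 60.6 CPM (lowest, median, highest) at day 11, against 0.0833, 0.160 and 1.76 CPM in uninjured muscle (4.65 ± 0.64), and Oas1a, whose paralogs lie beside it and may share its reads, rose by 3.30 ± 0.40. The highest value of each belonged to female day 11 replicate 2. That library's mean over the list was 6.42 log2 CPM, against at most 4.52 in the other 5 day 11 libraries and 1.59 to 3.41 in uninjured muscle. The other 5 day 11 libraries also lay above every uninjured one in Zbp1, Mx1 and Oas1a. Rsad2 (-0.11 ± 0.31, adjusted p = 0.757) and Gbp2 (-0.01 ± 0.27, adjusted p = 0.988) were not called. With library size alone all 16 were called higher, Rsad2 at 1.03 and Gbp2 at 1.14.

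The promoters of Isg15, the ubiquitin-like protein of the interferon response (3.06 ± 0.45), and of Oas1a are shown because the factor complex that interferon activates binds an element of the letters GAAA, any 2 bases and GAAA again. Both strands were searched, overlapping matches were counted separately, and the capitals mark them. The windows are from the same RefSeq table (GRCm38.p6), Isg15 at chr4:156200769-156201068 and Oas1a at chr5:120907476-120907775, both on the minus strand.
Isg15: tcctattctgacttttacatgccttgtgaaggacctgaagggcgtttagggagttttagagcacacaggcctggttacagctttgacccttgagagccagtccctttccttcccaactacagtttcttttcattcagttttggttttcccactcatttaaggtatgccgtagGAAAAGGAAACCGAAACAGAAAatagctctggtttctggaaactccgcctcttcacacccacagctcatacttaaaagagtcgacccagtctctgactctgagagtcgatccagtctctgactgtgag
Oas1a: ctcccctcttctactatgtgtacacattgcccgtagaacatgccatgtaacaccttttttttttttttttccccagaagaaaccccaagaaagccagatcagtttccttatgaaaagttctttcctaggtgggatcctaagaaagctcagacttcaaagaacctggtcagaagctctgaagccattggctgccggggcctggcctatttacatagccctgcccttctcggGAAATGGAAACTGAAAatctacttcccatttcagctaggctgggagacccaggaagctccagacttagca
Isg15 held 3 overlapping matches and Oas1a 2. The motif was found in 7 of the 12 promoters of the list that matched the table, and in 3.49% of 27025 promoters of the same length. The 7 included Rsad2 and Gbp2, which were not called but were called higher with library size alone. Irf7 and Oasl2 were among the called genes without a match.

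Matrix genes rose almost as a whole. All 21 tested chains of the collagen list were higher (median 3.77), in 19 without overlap. Col1a1, a chain of the main collagen of scar and tendon, had 1419, 5315 and 9667 CPM (lowest, median, highest) at day 11, against 30.2, 62.7 and 139 CPM in uninjured muscle (6.18 ± 0.52, adjusted p = 5.00e-10). Col3a1, the chain of early scar, had 1861, 3854 and 9630.1 CPM (lowest, median, highest) at day 11, against 52.0, 97.3 and 234 CPM in uninjured muscle (5.55 ± 0.45). The basement membrane chains Col4a1 and Col4a2 rose less in value, by 1.33 ± 0.19 and 1.52 ± 0.18. Of 20 matrix glycoproteins 19 were higher and 0 lower (median 3.89). Postn, periostin of growing and wounded connective tissue, had 427, 2326 and 3503 CPM (lowest, median, highest) at day 11, against 3.62, 6.04 and 10.8 CPM in uninjured muscle (8.33 ± 0.66, adjusted p = 1.93e-10). Tnn, a tenascin, rose by 7.11 ± 0.91, Cthrc1 by 6.88 ± 0.69 and fibronectin Fn1 by 4.81 ± 0.49. Every day 11 library lay above every uninjured one in these. Of 12 small leucine-rich proteoglycans, which coat collagen fibrils, 11 were higher and 0 lower (median 2.43), with Aspn at 4.46 ± 0.45, Bgn at 4.21 ± 0.39 and Podnl1 at a ratio of 615 (170.1 to 5086) over 2 uninjured counts.

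Of 16 enzymes that modify and crosslink collagen 14 were higher and 1 lower (median 3.03). Lox, lysyl oxidase, stood at 42.2 to 241 CPM (median 188) at day 11 and 3.96 to 10.8 CPM (median 4.96) in uninjured muscle (4.64 ± 0.49) and Loxl3 at 33.9 to 85.4 CPM (median 56.8) at day 11 and 2.33 to 5.97 CPM (median 4.32) in uninjured muscle (3.77 ± 0.37). Among the prolyl hydroxylase subunits P4ha3 rose, P4ha1 was not called (-0.03 ± 0.16, adjusted p = 0.857) and P4ha2 was the lower member (-0.57 ± 0.13). Of 19 matrix proteases and inhibitors 17 were higher and 2 lower (median 2.96). The macrophage elastase Mmp12 had 6.64, 24.1 and 129 CPM (lowest, median, highest) at day 11, against 0, 0.0763 and 0.241 CPM in uninjured muscle (ratio 412, 245 to 754), the collagenase Mmp13 stood at 13.1 to 149 CPM (median 43.0) at day 11 and 0 to 2.89 CPM (median 0) in uninjured muscle, and the inhibitor Timp1 rose by 7.40 ± 0.58. The inhibitors moved in opposite directions: Timp2 rose by 1.77 ± 0.31, while Timp3 (-1.08 ± 0.27) and Timp4 (-3.15 ± 0.58) were lower, Timp4 at 4.77 to 21.7 CPM (median 10.5) at day 11 and 76.3 to 141 CPM (median 89.6) in uninjured muscle.

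Of 14 markers of activated fibroblasts and myofibroblasts 13 were higher and 0 lower (median 4.20). Lrrc15 had 6.32, 69.6 and 92.6 CPM (lowest, median, highest) at day 11, against 0.0833, 0.181 and 0.458 CPM in uninjured muscle (8.15 ± 0.80), and Ltbp2, a protein of microfibrils, stood at 10.3 to 38.1 CPM (median 23.7) at day 11 and 0 to 0.443 CPM (median 0.0440) in uninjured muscle (ratio 148, 97.6 to 236). Acta2, the smooth muscle actin of myofibroblasts and vessel walls, moved less in value, at 119 to 522 CPM (median 294) at day 11 and 52.0 to 173 CPM (median 124) in uninjured muscle (1.44 ± 0.36, adjusted p = 0.000975), and its groups overlapped. Of 14 markers of fibro-adipogenic progenitors 10 were higher and 2 lower (median 1.44), with Cd248 at 3.70 ± 0.34, Lum at 2.61 ± 0.31 and Osr1 at 2.18 ± 0.22. Pdgfra, their usual marker, had 28.5, 33.2 and 40.2 CPM (lowest, median, highest) at day 11, against 6.95, 9.58 and 13.03 CPM in uninjured muscle (1.84 ± 0.20). Among 26 genes of TGF-β, activin and BMP signalling 15 were higher and 7 lower (median 0.70), and with library size alone 18 were higher and 2 lower. Mstn, which encodes myostatin, a curb on muscle growth made by fibres, had 1.63, 2.46 and 5.51 CPM (lowest, median, highest) at day 11, against 31.3, 38.8 and 63.1 CPM in uninjured muscle (-3.86 ± 0.47, adjusted p = 8.19e-08). Its antagonist Fst, follistatin, moved the other way and had 9.09, 11.7 and 26.9 CPM (lowest, median, highest) at day 11, against 0.763, 1.50 and 2.45 CPM in uninjured muscle (3.15 ± 0.31). Neither pair of groups overlapped. The inhibitory Smad6 was lower (-2.01 ± 0.25).

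Most tested tendon and cartilage genes were higher. Of 10 tendon cell genes 9 were higher and 0 lower (median 2.28). Tnmd, which encodes tenomodulin of mature tendon, had 16.4, 135 and 188 CPM (lowest, median, highest) at day 11, against 1.76, 3.75 and 10.2 CPM in uninjured muscle (4.59 ± 0.53, adjusted p = 4.39e-08), and the corneal and tendon proteoglycan Kera stood at 9.32 to 75.9 CPM (median 48.1) at day 11 and 0.382 to 8.33 CPM (median 2.57) in uninjured muscle (4.17 ± 0.64). The transcription factors Mkx (3.66 ± 0.47) and Scx (1.94 ± 0.32) rose too, Scx with overlap. The lowest day 11 value of Tnmd, like that of Kera, was that of female day 11 replicate 3. Of 14 tested cartilage and bone genes 9 were higher and 1 lower, with a median of 3.24, or 1.65 with genes near 0 at their bounds. The lower member was Col9a1, a chain of a cartilage collagen that is not in the collagen list, at 0.695 to 8.99 CPM (median 1.96) at day 11 and 4.96 to 20.5 CPM (median 8.63) in uninjured muscle (-1.79 ± 0.39, adjusted p = 0.000264), with overlap. Without female day 11 replicate 3 3 were lower. Besides Acan the higher genes included Comp at 23.1 to 101 CPM (median 31.3) at day 11 and 0.615 to 7.44 CPM (median 2.11) in uninjured muscle (3.84 ± 0.61) and Runx2, the transcription factor of bone and of enlarged cartilage cells (4.03 ± 0.36). The bone genes Bglap and Dmp1 were called higher but stayed below 1 CPM in all 12 libraries, and Ibsp was not called.

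Vessel genes moved in both directions. Of 15 endothelial markers 3 were higher and 4 lower (median -0.02), whereas with library size alone 12 were higher and 2 lower (median 1.12). Pecam1, CD31 of all endothelium, stood at 116 to 149.9 CPM (median 129) at day 11 and 103 to 153 CPM (median 141) in uninjured muscle and was not called (-0.04 ± 0.15, adjusted p = 0.835). With library size alone Pecam1 was called higher (1.10). The VEGF receptor Flt1 (-1.61 ± 0.26) and the water channel Aqp1 (-2.40 ± 0.45) were lower, and Plvap, of leaky capillaries, was higher (1.09 ± 0.22). Of 15 angiogenic factors 7 were higher and 3 lower (median 0.48), with Pgf at 2.31 ± 0.30 and the apelin receptor Aplnr at 2.19 ± 0.20, and Vegfa was not called (-0.36 ± 0.46, adjusted p = 0.485). Of 13 pericyte and smooth muscle markers 2 were higher and 4 lower (median -0.33), whereas with library size alone 9 were higher and 0 lower (median 0.81). Cspg4, the NG2 proteoglycan, rose by 1.54 ± 0.17, and the channel subunit Abcc9 (-1.30 ± 0.29) and Lmod1 (-1.56 ± 0.24) fell. Of 15 Schwann cell and nerve repair genes 9 were higher and 1 lower (median 0.80), and 2 were lower without female day 11 replicate 3. Gdnf, a growth factor that Schwann cells make after denervation, stood at 2.57 to 10.4 CPM (median 3.99) at day 11 and 0.352 to 2.17 CPM (median 0.865) in uninjured muscle (2.20 ± 0.39), and Gap43 of growing axons at 0.818 to 3.34 CPM (median 1.49) at day 11 and 0 to 0.620 CPM (median 0.188) in uninjured muscle (3.11 ± 0.45). The myelin gene Mbp was not called.

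Markers of cells that a dissected muscle could also hold were checked. Of 12 tested adipocyte genes 2 were higher and 2 lower, with a median of 0.50, which was -0.43 without female day 11 replicate 3, where 1 was higher. With library size alone 5 were higher and 0 lower. That library had the highest mean of the list among the 6, 2.62 log2 CPM, against 0.442 to 1.02 in the other 5 and 0.151 to 2.07 in uninjured muscle. Plin4, which muscle fibres make as well, fell by 2.09 ± 0.54 on the log2 scale. Lipe, hormone-sensitive lipase, had a log2 fold change of -0.76 ± 0.25 (adjusted p = 0.00799) that became 0.38 with library size alone, and Pparg one of 0.50 ± 0.22 (adjusted p = 0.0472), whose call was lost without any 1 of 9 of the 12 libraries. The keratins Krt5 and Krt14 of skin had too few counts to be tested, as had the hemoglobin chains. Of 4 tested red blood cell genes 0 were higher, and Alas2, which makes heme in red cells, was lower (-1.78 ± 0.49), but not with library size alone. Of 4 tested keratinocyte markers 2 were higher, Trp63 (1.06 ± 0.24) and Dsp, whose highest level was 0.379 CPM, and all 4 were with library size alone.

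Genes of cell division were higher at day 11. Of 21 tested cell cycle genes 18 were higher and 1 lower (median 3.98). Mki67, which marks dividing cells, had 26.8, 41.1 and 61.4 CPM (lowest, median, highest) at day 11, against 0, 0.601 and 1.68 CPM in uninjured muscle (6.28 ± 0.43, adjusted p = 4.01e-11). The mitotic genes Cenpf (ratio 136, 62.4 to 372), Ccnb1 (ratio 82.5, 37.7 to 226) and Bub1 (ratio 75.7, 34.6 to 207) had 6 counts each over all uninjured libraries. Aurka, a mitotic kinase, went the other way, with 2.94, 4.40 and 5.50 CPM (lowest, median, highest) at day 11, against 11.3, 16.8 and 24.4 CPM in uninjured muscle (-2.02 ± 0.22), and the replication genes Pcna (-0.32 ± 0.24) and Mcm2 (-0.38 ± 0.21) were not called. With library size alone Pcna (0.82) and Mcm2 (0.75) were called higher, and of the 21 cell cycle genes 20 were higher and 1 lower. Of 18 genes of the secretory pathway and of ER stress 5 were higher and 6 lower (median 0.22), whereas with library size alone 13 were higher and 2 lower (median 1.35). Creb3l1, a factor that cells use to secrete collagen, rose by 3.45 ± 0.34 and Sec24d of the transport vesicles by 2.26 ± 0.30, whereas the stress genes Dnajb9 (-2.48 ± 0.33) and Herpud1 (-2.19 ± 0.27) fell. Of 12 genes of the IGF system 8 were higher and 1 lower (median 1.34), with Igfbp2 at a ratio of 178 (81.7 to 487). Of 26 Notch and Wnt genes 15 were higher and 2 lower (median 1.00), and with library size alone 25 were higher and 1 lower (median 2.15). The secreted Wnt inhibitors Sfrp2, at 13.9 to 135 CPM (median 42.0) at day 11 and 0 to 0.528 CPM (median 0.194) in uninjured muscle (8.03 ± 0.73), and Sfrp1 (3.68 ± 0.41) rose, and the ligand Wnt4 fell to 5.02 to 13.3 CPM (median 7.25) at day 11, against 83.6 to 163 CPM (median 126) in uninjured muscle (-3.85 ± 0.52).

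**Figure D3:**
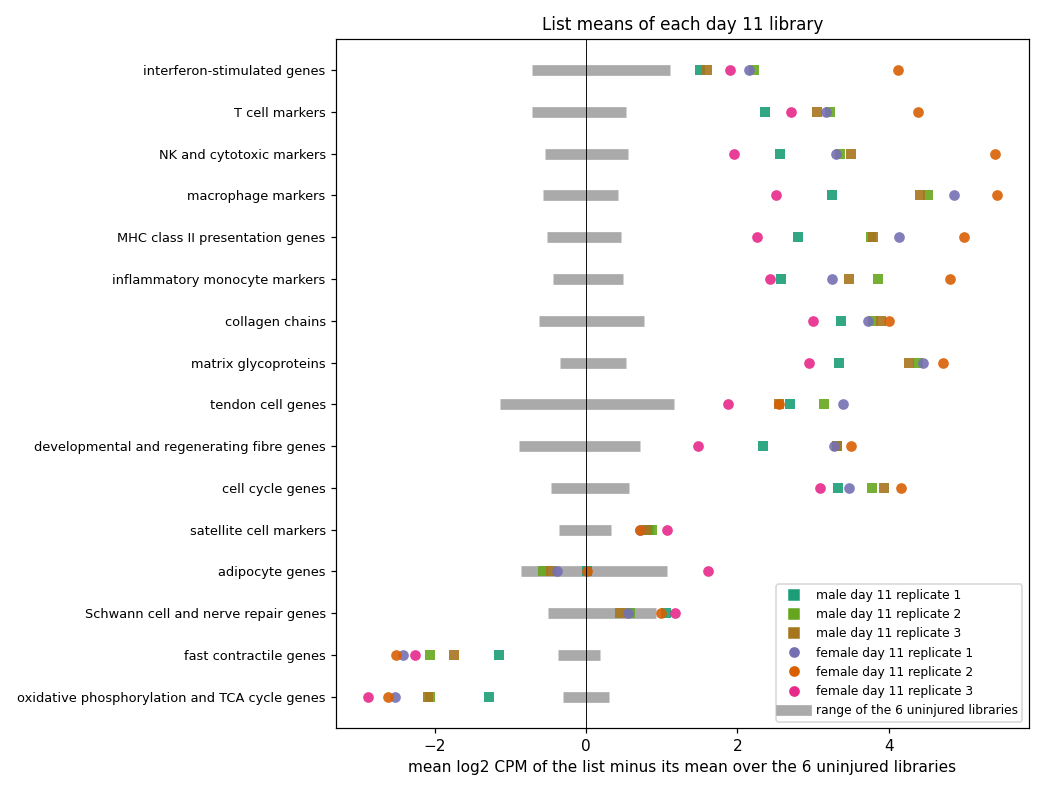
Mean log2 CPM of 16 gene lists in each day 11 library, less the mean of that list over the 6 uninjured libraries, whose range is the grey bar. Squares are libraries labelled male and circles female. For interferon-stimulated genes female day 11 replicate 2 stands apart at a mean of 6.42 log2 CPM, and for adipocyte genes female day 11 replicate 3 stands apart at 2.62 log2 CPM.

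The response was also computed within each sex. In females 6692 genes were higher (39.1%) and 4543 lower (26.5%), and in males 5008 were higher (29.2%) and 3747 lower (21.9%). The difference between these counts does not show a difference in response, which was tested gene by gene as an interaction. That test called 10 genes (0.0584%), all with a more positive change in females, and 0 with a more positive change in males, where 1733 genes had an unadjusted p under 0.05. Leaving out female day 11 replicate 3 gave 11 calls, leaving out female uninjured replicate 1 gave 5, leaving out female day 11 replicate 1 gave 22 and leaving out male uninjured replicate 1 gave 18, while DESeq2 called 82. Within females, 6021 genes were higher and 4843 lower without female day 11 replicate 3. In all 10 the mean level in uninjured muscle was higher in males than in females. Cbr2, a carbonyl reductase, held 14.5 to 22.0 CPM in females at day 11 and 12.3 to 16.0 CPM in uninjured females, and 13.2 to 19.1 CPM in males at day 11 and 55.9 to 88.4 CPM in uninjured males (female minus male 2.78 ± 0.42, adjusted p = 0.00328). The kinase gene Cdk19 held 20.9 to 26.8 CPM in females at day 11 and 15.8 to 18.6 CPM in uninjured females, and 20.6 to 24.3 CPM in males at day 11 and 34.4 to 80.4 CPM in uninjured males (1.77 ± 0.29, adjusted p = 0.00777). In both genes the day 11 ranges of the sexes overlapped, and the uninjured male range lay above the uninjured female one. Bco2, which cleaves carotenoids, had no count in uninjured females, and its difference rests on levels under 1 CPM in uninjured males and up to 3.73 CPM in females at day 11. In the other direction the smallest p-values were those of Cacna2d2, Selenbp1 and Idh2, and none passed the correction. Idh2, the mitochondrial isocitrate dehydrogenase, held 52.3 to 100.2 CPM in females at day 11 and 511 to 698 CPM in uninjured females, and 109 to 139 CPM in males at day 11 and 208 to 250.3 CPM in uninjured males (-2.15 ± 0.52, adjusted p = 0.145).

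Day 11 was set against its neighbouring days, with contrasts that use no uninjured library. Against the mean of days 7 and 15, 3 genes were higher (0.0175%) and 14 lower (0.0817%) by edgeR's quasi-likelihood test. The 3 higher were Calhm6, a channel gene of immune cells (1.84 ± 0.35, adjusted p = 0.0288), Ms4a4b of T and NK cells (2.00 ± 0.41, adjusted p = 0.0493) and Foxp3 (1.81 ± 0.36, adjusted p = 0.0374). Foxp3 had a median of 0.382 CPM at day 7, 0.706 CPM at day 11 and 0.181 CPM at day 15. Without female day 11 replicate 3, 45 genes were higher and 23 lower, and Cd3d, Cd3e, Cd3g, Cd4 and Nkg7 were then among those called. No gene was called higher without any 1 of 8 libraries, which were male day 7 replicates 1 and 3, male day 11 replicates 2 and 3, male day 15 replicates 2 and 3 and female day 15 replicates 1 and 3. The higher count was 12 without female day 11 replicate 1, 5 without male day 15 replicate 1 or female day 15 replicate 2, and 1 without female day 7 replicate 2. The lower count was 7 to 9 without male day 11 replicate 3, female day 11 replicate 2, male day 15 replicate 2 or 3, or female day 15 replicate 3. The 14 lower genes were Fos, Fosb, Jun, Junb, Zfp36, Btg2 and Ccn1, which are known as genes that many stimuli switch on quickly, and Cebpb, Cebpd, Nfil3, Cxcl1, Rnd1, Slc10a6 and Fam107a. Fos had 9.48, 18.7 and 42.8 CPM at day 7, 9.99, 14.2 and 29.6 CPM at day 11 and 185, 334 and 1197 CPM at day 15 (lowest, median, highest). Its day 7 and day 11 ranges overlapped and day 15 lay far above both. Against day 7 alone the log2 difference was -0.36 ± 0.39 (adjusted p = 0.93), and against day 15 -4.59 ± 0.45 (adjusted p = 6.00e-07). The same held for the other 13, none of which was called against day 7 and all of which were called lower than at day 15.

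**Figure D4:**
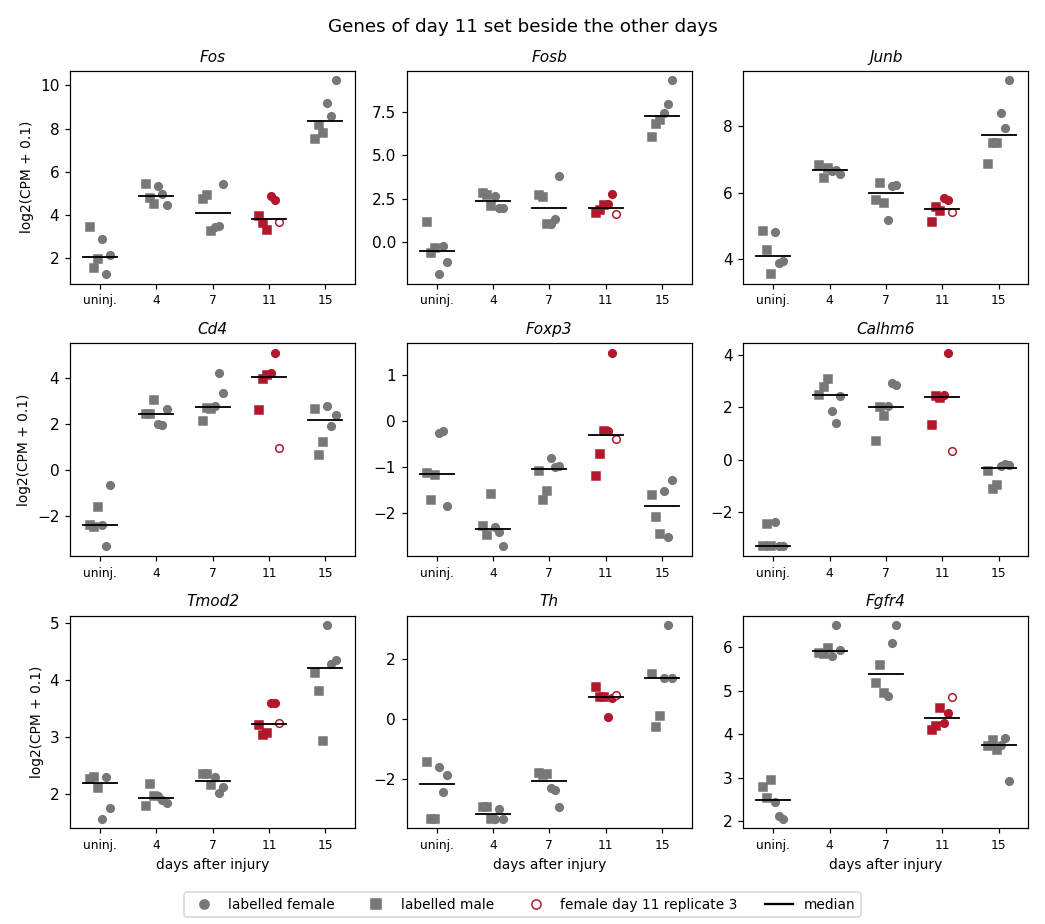
Level of 9 genes in each library, as log2(CPM + 0.1), in uninjured muscle and at days 4, 7, 11 and 15. Day 11 is red, circles are libraries labelled female, squares male, the open circle is female day 11 replicate 3, and bars are medians. Fos, Fosb and Junb at day 11 lie near day 7 and below day 15, Cd4 has its highest median at day 11, and Tmod2 and Th rise after day 7 while Fgfr4 falls.

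Against day 7 alone, 7 genes were higher (0.0408%) and 3 lower (0.0175%). The higher genes were Th, Aldh3a1, Tmod2, Cd34, Tgfbr3, Atf5 and Gm12185. Th, which encodes tyrosine hydroxylase of sympathetic nerves, had medians of 0.139 CPM at day 7, 1.55 CPM at day 11 and 2.47 CPM at day 15 (3.71 ± 0.54 against day 7, adjusted p = 0.00451). Tmod2, a capping protein of actin filaments, had medians of 4.58 CPM at day 7, 9.25 CPM at day 11 and 18.3 CPM at day 15 (1.10 ± 0.18 against day 7, adjusted p = 0.00876). The lower genes were Fgfr4, Iqsec3 and Ptprn. Fgfr4, the receptor of satellite cells and myoblasts, had medians of 42.0 CPM at day 7, 20.6 CPM at day 11 and 13.2 CPM at day 15 (-1.19 ± 0.21 against day 7, adjusted p = 0.0237). Day 11 lay between the other days in Tmod2, Th and Fgfr4. Against day 15, 385 genes were higher (2.25%) and 342 lower (2%). The higher ones took in 9 of 16 interferon-stimulated genes, 6 of 13 T cell markers, 5 of 14 macrophage markers and 4 of 19 developmental fibre genes, among them Tnnt2 (1.54 ± 0.40, adjusted p = 0.0298) and Cx3cr1 (1.77 ± 0.35, adjusted p = 0.00463). The lower ones took in 3 of 12 adipocyte genes, 5 of 15 endothelial markers and 5 of 17 atrophy genes. No collagen chain and no glycolysis or oxidative gene of the lists was called between day 11 and either neighbouring day.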

How the data were processed

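RNA of mouse tibialis anterior was sequenced, and a commercial laboratory extracted it and built the libraries, per the labels' protocols. The submitters' processing notes name STAR, the mouse build mm39 and edgeR, without versions. The authors deposited whole-number counts for 26264 gene symbols in each library. No counting program, annotation, strand setting or treatment of shared reads is given in the sources used here. Mitochondrially encoded genes were not analysed here.

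From these counts, genes were kept by filterByExpr over the 10 groups (17136 kept, 9128 removed), scaled by TMM and fitted with edgeR 4.0.16 in R 4.3.3 (limma 3.58.1), with all 30 libraries in 1 quasi-likelihood fit and 1 mean per group. Contrasts weighted the sexes equally, and p-values were adjusted by Benjamini and Hochberg over the tested genes, with calls at an adjusted p under 0.05. CPM were taken over the scaled library size, and log2 CPM used a prior count of 2. Day 11 libraries held 27129433 to 38555740 counts and uninjured libraries 40757683 to 48860849. Replicates differed far beyond counting noise, with a chi-square per degree of freedom of 29.4 to 454 over 12 pairs. The same steps were tested on simulated data. For day 11 against uninjured muscle they recovered 11.9% of 1.5-fold, 62.7% of 2-fold and 95.5% of 4-fold changes. A gene that was not called may therefore still differ. Promoters were matched by symbol to RefSeq sequences of GRCm38.p6, another build than the alignment, so no coordinate was taken from the counts.

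The 50 lists held 731 symbols, of which 726 were in the files and 706 were tested. The lists and the genes described were chosen with earlier results of these data known. Genes named were the 10 largest called rises and falls without overlap and with a mean of at least 5 CPM, the 3 largest called changes of each list with a mean of at least 1 CPM, the 3 smallest p-values of each direction between the sexes, up to 8 genes in each direction against days 7 and 15 with a mean of at least 5 CPM, and a fixed set of defining genes. Predicted and sex-linked genes were passed over, and a few genes under the rule are not reported here. Other members named were chosen after their values were seen, as contrasts or exceptions within a list. Fold bounds took 6 counts (3 read pairs) over the group as the floor. Alternatives were DESeq2 1.42.0, other scalings and filters, a 2-fold threshold, the compared groups alone, thinned and halved counts, a replicate block, and each library left out.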

Additional observations from a re-analysis of the deposited data

Results flagged for a closer look

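In 218 groups of 6 libraries, 11 had 1 library apart from the rest by Dixon's gap. Chance gives this in about 1 group in 20, so 11 is about the number that chance gives. Among list means, female day 11 replicate 2 was the highest in interferon-stimulated genes, at 6.42 log2 CPM with the next at 4.52. The library labelled female day 11 replicate 3 was the highest in adipocyte genes, at 2.62 with the next at 1.02, and in Plin1, at 0.38 log2 CPM with the next at -2.06. Male day 11 replicate 1 was the highest in pericyte and smooth muscle markers, at 5.30 with the next at 4.96, and in Ces1d, at 2.39 log2 CPM with the next at 0.0048. Female day 11 replicate 1 was the lowest in the histone gene H4c9, at -0.93 with the next at 0.10.

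Among uninjured libraries, female replicate 2 was the highest in the slow myosin Myh7, at 6.24 log2 CPM with the next at 1.25. Female replicate 1 was the highest in Acan, at -2.81, and female replicate 3 the lowest in Ms4a4b, at -4.32, both at the level of single counts. Male replicate 1 was the lowest in Phospho1, at 3.96 with the next at 5.25, and in Sdr39u1, at 5.01 with the next at 5.86. The groups compared did not overlap in Phospho1 or Sdr39u1.

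For 10 genes the log2 response at day 11 differed between the sexes in edgeR's test of the difference, always more positive in females. The difference, female minus male, was 1.77 for Cdk19, 2.78 for Cbr2, 5.85 for 1700001O22Rik, 3.12 for Actr3b, 2.56 for Sh3bp2, 4.15 for Cd27, 3.70 for Htra4, 6.52 for Pbx4, 7.70 for B3gat1 and 8.74 for Bco2. Pbx4, B3gat1 and Bco2 had no count in uninjured females, so the fitted size depends on the prior count. Sh3bp2, which encodes an adaptor of immune and bone cell signalling, averaged 17.5 CPM in females at day 11 and 1.22 CPM in uninjured females, and 13.5 CPM in males at day 11 and 5.56 CPM in uninjured males. Actr3b, of the actin branching complex, averaged 3.89 CPM in females at day 11 and 2.54 CPM in uninjured females, and 7.26 CPM in males at day 11 and 41.0 CPM in uninjured males. The library labelled female day 11 replicate 3 carried Y-linked transcripts. Without it 11 genes were called, and Actr3b and Htra4 were not among them. Leaving out other single libraries also took away the calls of Actr3b, Htra4, Sh3bp2, Pbx4 and Cd27, with adjusted p-values of 0.0510 to 0.126 by edgeR's test, whereas Cdk19, Cbr2, 1700001O22Rik, B3gat1 and Bco2 kept theirs without each of the 12 libraries in turn.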

How the results depend on the processing

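With library size alone 12652 genes were higher and 1385 lower, the sex test called 23, and 5 genes were higher than at days 7 and 15. Lipe (0.38), Ppargc1a (0.19) and the medians of the dystrophin complex (0.048) and of the atrophy genes (0.21) then turned positive. With the 2-fold threshold 4259 were higher and 1944 lower, 3 differed by sex, and 0 were higher and 0 lower than at days 7 and 15. The sex test called 82 with DESeq2, 16 with CPM above 1 in 3 libraries and 2 with the compared groups alone. Against days 7 and 15, genes higher and lower numbered 20 and 44 with DESeq2 and 0 and 9 with the compared groups alone. Genes higher there numbered 11 with no low-count filter, 1 with the CPM filter, 0 with thinned and 7 with halved counts. Leaving out 1 library gave 6825 to 7452 genes higher and 4846 to 5508 lower than uninjured, 5 to 22 for sex, and 0 to 45 higher and 7 to 23 lower than days 7 and 15. The cause of these changes was not tested.

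No likeness by replicate number was seen: deviations of same-numbered libraries correlated at a mean of -0.0181, and only 9 of the 30 resembled their own number most. These values cannot show whether any libraries came from the same animal. The fit with the replicate block gave 7193 higher and 5053 lower, 17 for sex, and 4 higher and 12 lower than days 7 and 15.

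Of 170 genes chosen by rule for the day 11 change, 163 kept their call and direction with the 2-fold threshold. With library size alone 5 of the 170 lost their call in the same direction, 5 gained one in the same direction and 2 called genes changed sign. Among those of the 170 not called, Pecam1 (1.10) then changed sign and was called higher, and Myh1 (0.49) changed sign without a call. Other genes named above lie outside the 170. Of these, the called Ctsd, Ccl11, Cxcl14, P4ha2 and Timp3 changed sign. Uncalled genes that changed sign and were called higher included Chrne (0.94), P4ha1 (1.11), Pcna (0.82), Mcm2 (0.75), Rsad2 (1.03), Gbp2 (1.14), Cxcl12 (0.73) and Mbp (0.81). Pparg lost its call without any 1 of 9 libraries. Low counts limit the T, NK and B cell genes, most of which lay under a few CPM.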
